A study of Mus musculus with 4 samples.

Results

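The 9 genes described here carry signalling by transforming growth factor beta (TGF-beta) and were taken by name: the ligands Tgfb1, Tgfb2 and Tgfb3, the latency protein Ltbp1, the receptors Tgfbr1 and Tgfbr2, the intracellular mediators Smad3 and Smad7, and the induced matrix gene Tgfbi. They are 9 of the 33981 genes obtained by joining the deposited tables on gene identifier. All 9 passed the filter on low counts in every comparison. TGF-beta is secreted in a latent form that is held by a latency protein in the matrix and has to be activated before it can bind. The active ligand brings the type II receptor and the type I receptor together, and the type I receptor phosphorylates SMAD2 and SMAD3, which enter the nucleus with SMAD4, while SMAD7 limits the response. In the injured brain this pathway is known for its part in microglial identity, astrocyte reactivity and the formation of a fibrotic scar.

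Poly(A) RNA was sequenced from the prefrontal brain of male C57BL/6J mice aged 3 to 5 months, with 6 libraries in each of 4 groups. NT + Sham mice were infused subcutaneously with saline for 28 days and had sham surgery on day 7. NT + Stroke mice had the same infusion and a photothrombotic stroke of the prefrontal cortex on day 7, in which light closes cortical vessels after a dye has been injected. In the HT + Sham and HT + Stroke groups the infusion delivered angiotensin II instead of saline (0.28 mg/kg/day), a model of hypertension driven by 1 hormone. All brains were collected on day 28, so the stroke was in its chronic phase. The labels describe 1 sample per group, the tables number 6 libraries per group, and neither states that a library is a separate mouse, although the study describes RNA taken from the brains of mice, so the p-values below measure the spread between libraries.

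The depth was 15922919 to 24865998 counts per library. Markers of excitatory cortical neurons were present in all 24 libraries (summed level 1941 to 3736 CPM, which are counts scaled to library size), and so were markers of striatum (328 to 2591 CPM) and olfactory bulb (39.5 to 523.8 CPM), which neighbour the prefrontal cortex. Several libraries stood apart from their group. In HT + Stroke, libraries 1 and 6 had a summed level of 8 macrophage markers of 23.6 and 25.5 CPM against 93.9 to 470.6 CPM in the other 4 libraries. In HT + Sham, library 6 had 107.1 CPM against 11.4 to 19.5 CPM in the other 5. It was also the highest of HT + Sham for the summed microglial, astrocyte, fibroblast and olfactory bulb markers. The results for Tgfb1, Tgfbr2 and Tgfbi are given below with and without these libraries where they enter. These libraries were picked by marker levels in the same data. HT + Stroke library 1 was the lowest and HT + Sham library 6 the highest of its group for each of these genes. Leaving them out therefore moves the differences in a direction set by that choice, and such fits are descriptions. No sequencing batch or date was given. As this was bulk tissue, fewer cells of a type and less RNA per cell cannot be told apart.

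Levels were compared between genes as FPKM (fragments per kilobase, scaled to library size), which accounts for gene length. In NT + Sham, Smad3 was highest at 8.10 ± 0.744 FPKM (SD, n = 6), followed by Smad7 at 6.23 ± 0.478 FPKM and Tgfb3 at 5.90 ± 0.564 FPKM. The ranges of Smad7 and Tgfb3 overlapped, whereas the range of Smad3 lay above both. Tgfbr1 (2.58 ± 0.181 FPKM) and Tgfb1 (2.18 ± 0.394 FPKM) came next and overlapped each other. Tgfbr2 (1.53 ± 0.174 FPKM), Tgfb2 (1.24 ± 0.104 FPKM) and Tgfbi (1.02 ± 0.149 FPKM) formed an overlapping series, and Ltbp1 was lowest at 0.632 ± 0.0555 FPKM. In NT + Stroke the first 7 genes of the order overlapped their neighbours in range, and Tgfbi moved up to position 5 (3.87 ± 1.25 FPKM) from position 8 in NT + Sham. Smad3 remained first and Ltbp1 last by mean FPKM in all 4 groups.

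**Figure D1:**
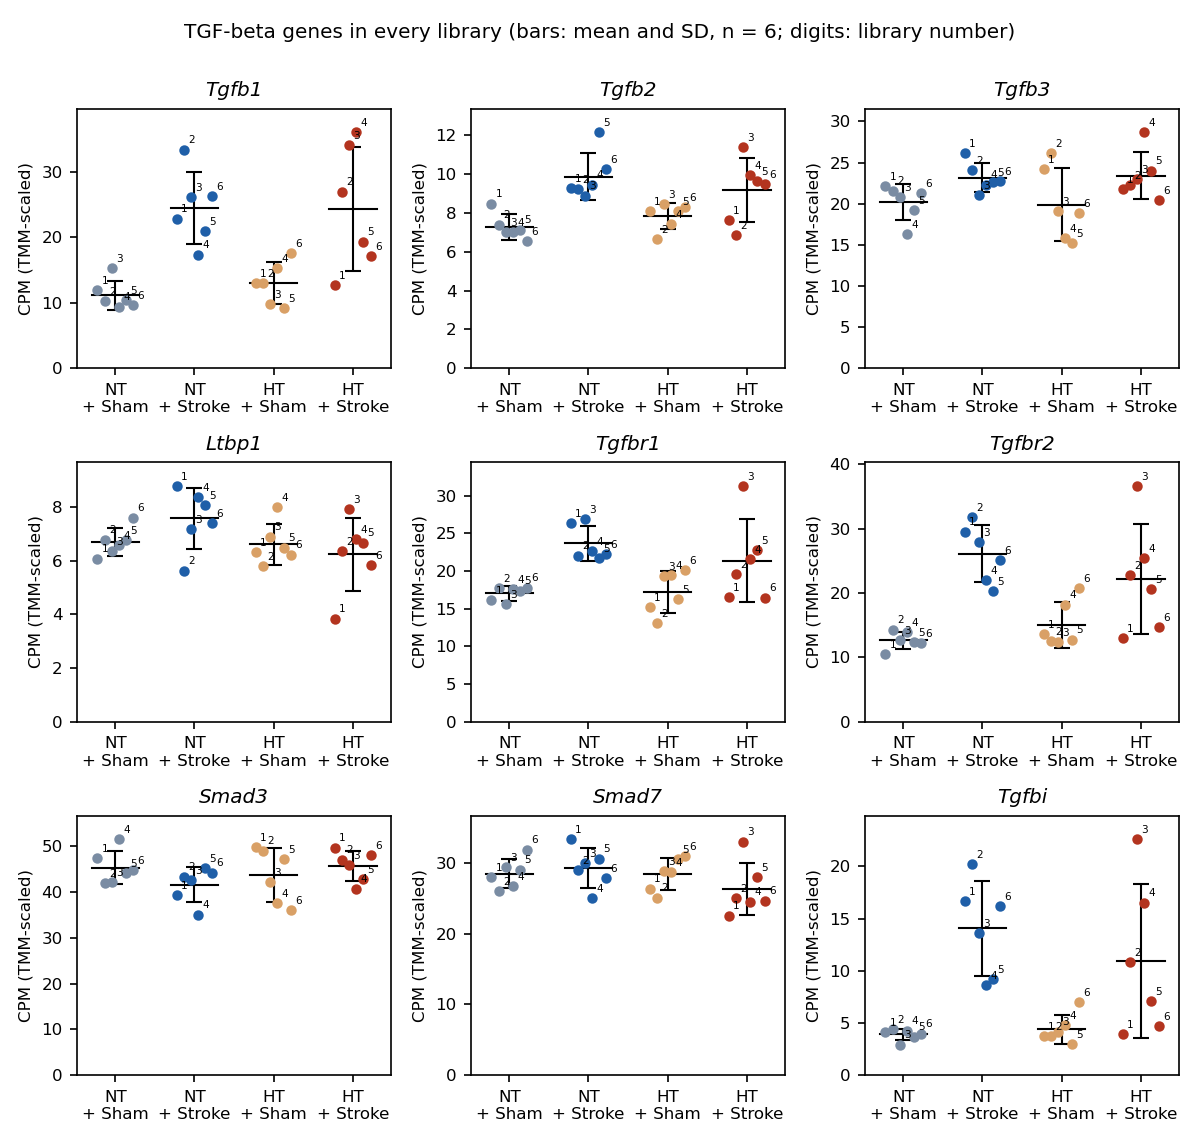
Level of each of the 9 TGF-beta genes in CPM (y axes, from 0) in each library of the 4 groups (x axes); points are libraries with their number, horizontal lines the mean and bars the SD (n = 6). Tgfb1, Tgfb2, Tgfbr1, Tgfbr2 and Tgfbi of NT + Stroke lie above all NT + Sham libraries, and the HT + Stroke libraries spread from the sham range upwards.

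Stroke in normotensive mice was examined first, by comparing NT + Stroke with NT + Sham. The induced gene Tgfbi, the ligands Tgfb1, Tgfb2 and Tgfb3 and both receptor genes were higher after stroke, from 3.65-fold for Tgfbi to 1.16-fold for Tgfb3. Ltbp1, Smad3 and Smad7 did not pass the test. Of the 9 genes, 6 passed an adjusted p of 0.05 and all 6 were higher, and the groups did not overlap for 5. Of all 16835 genes tested, 25.9% passed, 14.4% passed and were higher, and 14.3% had groups that did not overlap.

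Of the ligands, Tgfb1, the isoform associated with microglia and blood-derived cells, had 9.40 CPM in the lowest, 10.3 CPM in the median and 15.3 CPM in the highest NT + Sham library. In NT + Stroke these values were 17.3, 24.4 and 33.3 CPM. Every NT + Stroke library was above every NT + Sham library. The log2 fold change was 1.15 ± 0.14 (SE; adjusted p = 2.11e-05, edgeR's quasi-likelihood test). The gene (ENSMUSG00000002603) lies on the plus strand of chromosome 7 from 25687002 to 25705077 (GRCm38 coordinates, as for the genes below).

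The promoters of the 3 genes with the largest differences are shown because these genes rose together (RefSeq, GRCm38.p6, each from 250 bases before to 50 bases after the start site, 5′ to 3′ on the strand of the gene). Capitals mark matches, on either strand, to CAGAC (the core SMAD box), GTCTAGAC (the palindromic SMAD element), TGANTCA (AP-1), GAGGAA (the PU box bound by PU.1 in macrophages and microglia) and GGGCGG (the GC box).
Tgfb1, chr7:25686752-25687051, plus strand: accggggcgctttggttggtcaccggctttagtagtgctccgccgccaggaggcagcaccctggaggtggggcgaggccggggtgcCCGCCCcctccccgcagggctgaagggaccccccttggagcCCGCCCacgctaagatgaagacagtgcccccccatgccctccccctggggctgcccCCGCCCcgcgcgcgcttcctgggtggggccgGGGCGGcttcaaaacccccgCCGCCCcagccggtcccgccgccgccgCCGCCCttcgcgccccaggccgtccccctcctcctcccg
Tgfbr2, chr9:116175314-116175613, minus strand: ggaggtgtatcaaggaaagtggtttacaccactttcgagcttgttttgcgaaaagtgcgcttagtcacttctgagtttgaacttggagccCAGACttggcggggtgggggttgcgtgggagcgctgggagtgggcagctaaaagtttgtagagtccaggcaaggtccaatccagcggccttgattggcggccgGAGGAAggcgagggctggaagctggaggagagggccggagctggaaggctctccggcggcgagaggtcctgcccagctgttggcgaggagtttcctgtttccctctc
Tgfbi, chr13:56609336-56609635, plus strand: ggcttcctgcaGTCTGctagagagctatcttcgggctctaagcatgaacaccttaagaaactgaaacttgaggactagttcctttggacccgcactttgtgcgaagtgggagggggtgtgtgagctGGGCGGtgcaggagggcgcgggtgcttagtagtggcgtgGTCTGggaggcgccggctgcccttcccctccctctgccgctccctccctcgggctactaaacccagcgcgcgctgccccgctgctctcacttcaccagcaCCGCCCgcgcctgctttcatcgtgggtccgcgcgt
The Tgfb1 window held 6 GC boxes and 0 SMAD boxes. The Tgfbr2 window held 1 SMAD box and 1 PU box, and the Tgfbi window held 2 SMAD boxes and 2 GC boxes. The palindrome and the AP-1 motif were in none of the 3. Of 32851 promoters of this length, 49.6% held CAGAC, 0.213% the palindrome, 7.81% TGANTCA, 28.3% GAGGAA and 35.7% GGGCGG, so all of these motifs except the palindrome and the AP-1 motif are common in such windows. A match describes the sequence and no binding was measured.

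Tgfb2, a ligand made by neurons and astrocytes (ENSMUSG00000039239, chromosome 1, 186622792 to 186705989, minus strand), had 6.53, 7.08 and 8.48 CPM in the lowest, median and highest NT + Sham library. The NT + Stroke values were 8.88, 9.36 and 12.1 CPM, and the groups did not overlap. This was a log2 fold change of 0.46 ± 0.10 (adjusted p = 0.00237). Its antisense neighbour Gm29491, which overlaps it, had 54 counts over the 24 libraries against 3929 for Tgfb2.

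Tgfb3, the most abundant of the 3 ligand genes (ENSMUSG00000021253, chromosome 12, 86056745 to 86079041, minus strand), had 16.3, 21 and 22.1 CPM in NT + Sham and 21.1, 22.7 and 26.2 CPM in NT + Stroke. The ranges overlapped, with 5 of 6 NT + Stroke libraries above all NT + Sham libraries. A log2 fold change of 0.22 ± 0.08 passed the test narrowly (adjusted p = 0.0424). This call was lost when any of 7 of the 12 libraries was left out (highest adjusted p = 0.0889), namely NT + Sham 3, 4 or 5 or NT + Stroke 1, 2, 5 or 6. Tgfb3 overlaps Ttll5 on the opposite strand, which had 13167 counts over the 24 libraries against 9886 for Tgfb3, and since the sources used here do not state whether strand was used in counting, reads of the pair may not be separated.

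By length-adjusted level, the 3 ligand genes together had 9.32 ± 0.779 FPKM in NT + Sham and 13.9 ± 1.27 FPKM in NT + Stroke. The share of Tgfb1 in this sum was 23.4 ± 3.13% in NT + Sham, with a range of 20.4 to 29.2%. In NT + Stroke it was 35.9 ± 5.31%, with a range of 29.4 to 43.2%. The ranges of the Tgfb1 share did not overlap. Tgfb3 made up 63.3 ± 3.04% in NT + Sham and 51.3 ± 4.17% in NT + Stroke, and the share of Tgfb2 was 13.4 ± 1.33% and 12.8 ± 2.06%. These shares are descriptions without a test.

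**Figure D2:**
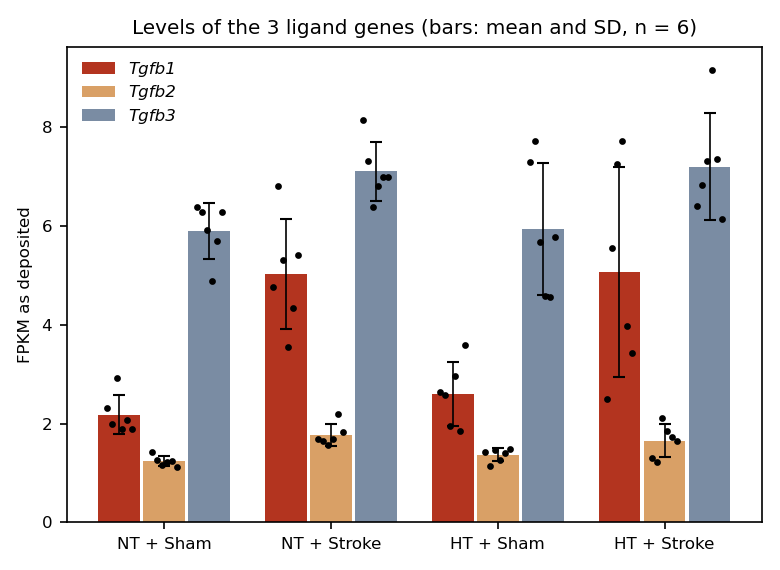
Levels of Tgfb1, Tgfb2 and Tgfb3 as deposited FPKM (y axis, from 0) in the 4 groups (x axis); bars are means with SD (n = 6) and points are libraries. Tgfb3 has the highest mean in every group, and the Tgfb1 mean is 2.18 FPKM in NT + Sham and 5.02 FPKM in NT + Stroke.

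Ltbp1, which binds latent TGF-beta to the matrix (ENSMUSG00000001870, chromosome 17, 75005568 to 75392512, plus strand), had 6.08, 6.67 and 7.6 CPM in the lowest, median and highest NT + Sham library and 5.63, 7.74 and 8.79 CPM in NT + Stroke. The ranges overlapped and the log2 fold change was 0.20 ± 0.11 (adjusted p = 0.216).

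The receptor genes both rose. Tgfbr2 encodes the type II receptor, which binds the ligand (ENSMUSG00000032440, chromosome 9, 116084293 to 116175360, minus strand), and had 10.5, 12.5 and 14.3 CPM in NT + Sham and 20.3, 26.5 and 31.8 CPM in NT + Stroke. All NT + Stroke libraries lay above all NT + Sham libraries, with a log2 fold change of 1.06 ± 0.11 (adjusted p = 1.78e-06). Tgfbr1 encodes the type I receptor kinase (ENSMUSG00000007613, chromosome 4, 47353222 to 47414931, plus strand), and had 15.6, 17.5 and 17.8 CPM in NT + Sham and 21.6, 22.5 and 26.9 CPM in NT + Stroke. The groups did not overlap here either, and the rise was 0.49 ± 0.08 on the log2 scale (adjusted p = 0.000105).

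The mediators did not pass the test. Smad3, the receptor-activated SMAD (ENSMUSG00000032402, chromosome 9, 63646767 to 63757994, minus strand), had 41.9, 44.5 and 51.6 CPM in NT + Sham against 35.1, 43.0 and 45.3 CPM for NT + Stroke (log2 difference −0.11 ± 0.07; adjusted p = 0.33). Smad7, the inhibitory SMAD that is itself induced by TGF-beta (ENSMUSG00000025880, chromosome 18, 75367529 to 75395935, plus strand), had 26.0, 28.5 and 31.8 CPM in NT + Sham against 25, 29.4 and 33.3 CPM for NT + Stroke (log2 difference 0.06 ± 0.07; adjusted p = 0.614). The ranges overlapped for both genes.

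Tgfbi encodes a secreted matrix protein that is induced by TGF-beta and is also made by macrophages (ENSMUSG00000035493, chromosome 13, 56609523 to 56639562, plus strand). It had 2.91, 4.02 and 4.41 CPM in the lowest, median and highest NT + Sham library, from 49 to 81 counts. In NT + Stroke it had 8.62, 14.9 and 20.2 CPM, from 185 to 416 counts. All 6 NT + Stroke libraries lay above all NT + Sham libraries. The log2 fold change was 1.87 ± 0.20 (adjusted p = 4.68e-06), the largest of the 9 genes.

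Markers of other cells moved in the same comparison. Of the microglial markers tested, 8 of 10 were higher in NT + Stroke, with a summed level of 408 to 509 CPM against 284 to 320 CPM. Of the macrophage markers, 5 of 7 were higher (95.6 to 458.9 CPM against 11.2 to 16 CPM), led by Gpnmb, which had a mean of 220.7 CPM against 6.38 CPM. Ccr2 was among the higher genes (log2 fold change 1.83), Cd163 and Lyve1 did not pass and Arg1 was not tested. Lyve1, Arg1 and Ccr2 stayed under 2 CPM on average in both groups. Of the fibroblast markers, 4 of 5 were higher (177.8 to 654.8 CPM against 62.6 to 76.9 CPM), 5 of 6 astrocyte markers were higher and 8 of 8 markers of excitatory cortical neurons were lower. Oligodendrocyte and olfactory bulb markers were each higher for 3 of 6, with median log2 fold changes of 0.269 and 1.22. Of the striatal markers 0 of 7 passed, with a median log2 fold change of 0.728. The part of these changes in the levels of the TGF-beta genes was not tested.

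**Figure D3:**
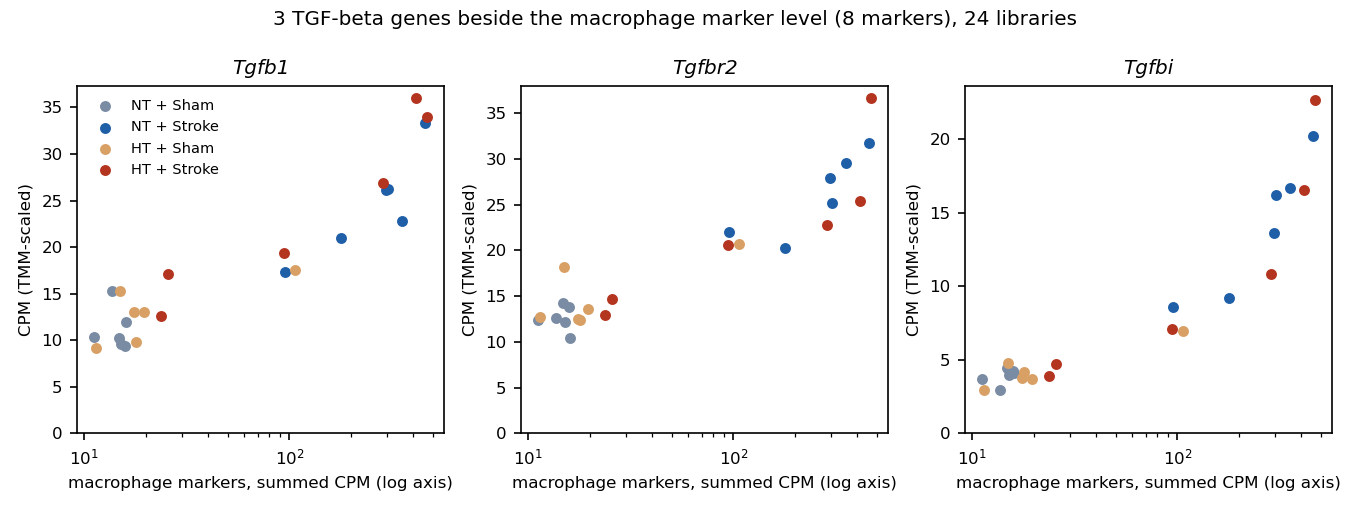
CPM of Tgfb1, Tgfbr2 and Tgfbi (y axes, from 0) against the summed CPM of 8 macrophage markers (x axes, log scale) in the 24 libraries, coloured by group. The 2 HT + Stroke libraries with 23.6 and 25.5 CPM of macrophage markers lie near the sham libraries for all 3 genes, and HT + Sham library 6 lies near the lowest NT + Stroke libraries.

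The wider pathway was read from the same fit with a list of 94 other genes of the TGF-beta superfamily in 7 roles. In NT + Stroke vs NT + Sham, 88 were tested, 43 were higher, 5 were lower and 40 did not pass, so that 54.5% passed against 25.9% of all genes. The median log2 fold change was 0.31. Of 15 genes for latency and activation, 11 were higher and 0 lower. Ltbp2, a matrix relative of Ltbp1, had the smallest p of this role (mean 1.52 CPM in NT + Sham against 10.6 CPM in NT + Stroke; log2 difference 2.79 ± 0.27, adjusted p = 2.72e-06). Nrros, which holds latent TGF-beta on microglia, rose by 0.62 ± 0.14 (adjusted p = 0.00229), whereas the integrin gene Itgb8, whose product activates latent ligand, did not pass (log2 fold change 0.19 ± 0.09, adjusted p = 0.154). Itgb8 passed without NT + Sham library 4 (0.26, adjusted p = 0.0325).

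Among 13 co-receptors and other receptors of the family, 5 were higher and 1 was lower. Cd109, a co-receptor that restrains TGF-beta signalling, rose from a mean of 0.512 to 2.65 CPM (log2 fold change 2.35 ± 0.29, adjusted p = 1.32e-05), and Tgfbr3, the co-receptor betaglycan, rose from 8.40 to 12.1 CPM (0.55 ± 0.10, adjusted p = 0.000526). Bmpr2, the type II receptor for bone morphogenetic proteins, fell from 132.2 to 112.6 CPM (log2 fold change −0.21 ± 0.06, adjusted p = 0.00879). Of 11 other ligands tested, 6 were higher and 0 lower, with Bmp6 having the smallest p (10.3 to 19.2 CPM; 0.91 ± 0.12, adjusted p = 2.65e-05). Of 7 extracellular antagonists, Dcn and Bgn were higher and Chrd was lower. Dcn encodes decorin, a proteoglycan of fibroblasts that binds TGF-beta, and it was also on the fibroblast marker list (9.65 to 53.0 CPM; 2.47 ± 0.18, adjusted p = 8.61e-07). Chrd encodes the antagonist chordin (57.7 to 42.6 CPM; −0.41 ± 0.08, adjusted p = 0.000628).

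Of 6 other SMAD genes, Smad5 and Smad6 were higher, and Smad6, an inhibitor of the bone morphogenetic protein branch, rose by 0.54 ± 0.14 on the log2 scale (adjusted p = 0.00882). Smad2 and Smad4, the partners of Smad3, had log2 fold changes of −0.09 ± 0.07 (adjusted p = 0.347) and 0.06 ± 0.07 (adjusted p = 0.585). Of 15 intracellular regulators, 4 were higher and 2 lower. The endocytic adaptor gene Dab2 rose (7.67 to 18.5 CPM; 1.29 ± 0.10, adjusted p = 1.63e-07) and Ppm1a, a phosphatase for SMAD2 and SMAD3, fell (211.4 to 174.1 CPM; −0.26 ± 0.06, adjusted p = 0.00167). Of 21 transcriptional targets, 13 were higher and 1 was lower. Timp1, an inhibitor of matrix proteases, rose from 0.489 to 6.23 CPM (3.67 ± 0.37, adjusted p = 4.68e-06). The collagen genes Col1a1 and Col1a2 of this role were also on the fibroblast marker list. Ccn2, a widely used readout of the pathway, had 29.8 and 32.7 CPM and did not pass (0.15 ± 0.09, adjusted p = 0.256). The early response gene Klf10 fell from 22.8 to 15.9 CPM (−0.50 ± 0.15, adjusted p = 0.0226), a call that was lost without NT + Sham 1, 3 or 4 or NT + Stroke 2 (log2 fold changes −0.47, −0.41, −0.49 and −0.46).

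**Figure D4:**
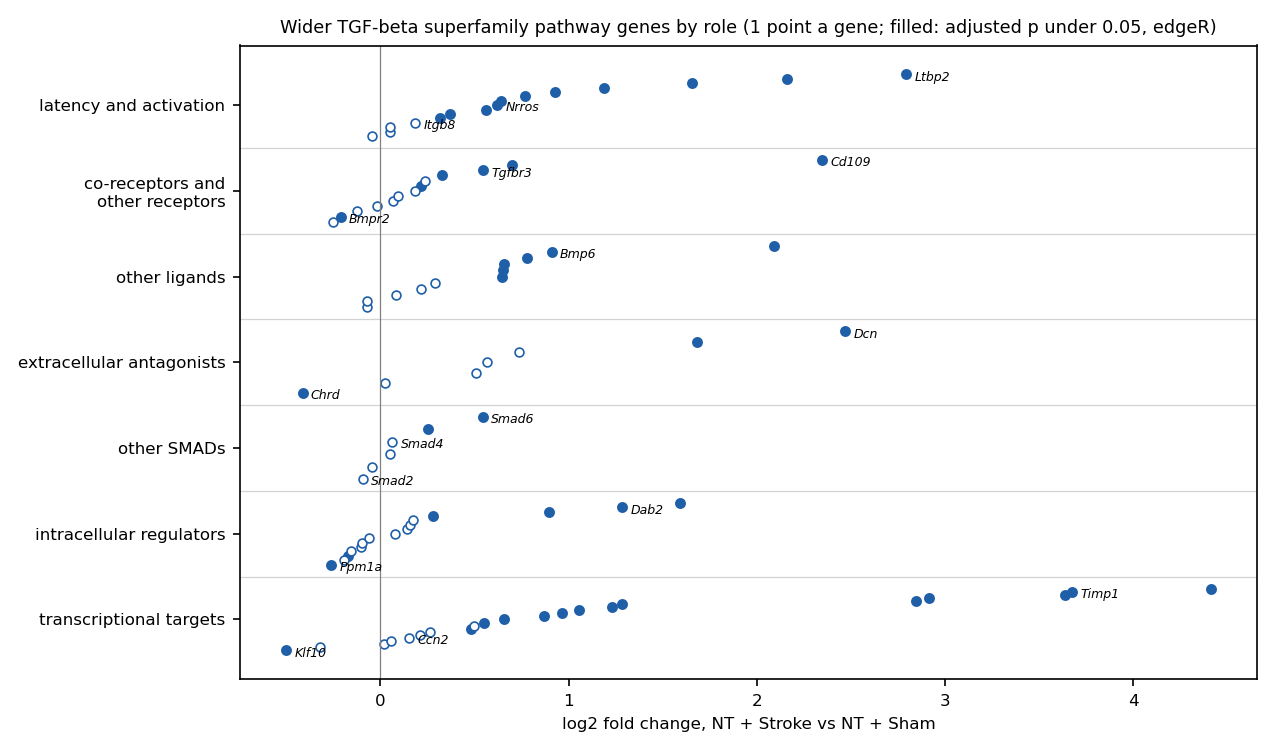
Log2 fold change of NT + Stroke vs NT + Sham (x axis) for the 88 tested genes of the wider TGF-beta superfamily list, grouped by role (y axis); filled points have an adjusted p under 0.05 in edgeR's test, and the genes whose values in this comparison are given are labelled. Latency genes and transcriptional targets hold most of the points above 1, and the other SMAD genes lie between −0.09 and 0.54.

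Stroke in hypertensive mice was examined next, by comparing HT + Stroke with HT + Sham. The group means of Tgfb1, Tgfbi and Tgfbr2 were higher after stroke here too, but the HT + Stroke libraries were spread widely. None of the 9 genes passed (0 of 9, edgeR), against 0.645% of the 16741 genes tested, and at an unadjusted p of 0.05 there were 4 of 9 (Tgfb1, Tgfbi, Tgfbr2 and Tgfbr1), against 17.0% of all genes. DESeq2 called 2, Tgfb1 (adjusted p = 0.00715) and Tgfbi (adjusted p = 0.048). In that tool 2.8% of 32442 genes passed, a total that includes genes with low counts, so this share is not like that of edgeR. Groups that did not overlap were found for 0 of 9, against 1.15% of all genes.

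Tgfb1 in HT + Stroke libraries 1 to 6 was at 12.6, 26.9, 34.0, 36, 19.3 and 17.1 CPM. In HT + Sham it ranged from 9.21 CPM (library 5) to 17.5 CPM (library 6), with a median of 13.0 CPM. Libraries 2 to 5 of HT + Stroke were above all HT + Sham libraries, while libraries 1 and 6 lay inside the HT + Sham range. As a log2 fold change this was 0.93 ± 0.26 (adjusted p = 0.106). Without HT + Stroke library 1 it was 1.06 and passed (adjusted p = 0.0291), and without HT + Stroke library 6 or HT + Sham library 6 it was 1.01 (adjusted p = 0.0702) and 1.05 (adjusted p = 0.0749). Since these libraries were picked by measured levels, the rise on leaving them out is no added evidence of a stroke effect.

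Tgfbi in HT + Stroke libraries 1 to 6 was at 3.90, 10.9, 22.6, 16.5, 7.07 and 4.70 CPM, a 5.80-fold range. In HT + Sham the lowest, median and highest values were 2.95, 3.95 and 6.97 CPM. Again libraries 1 and 6 lay inside the sham range and library 3 was the highest of all 24. The log2 fold change was 1.34 ± 0.42 (adjusted p = 0.136), and it was 1.51 without HT + Stroke library 1 (adjusted p = 0.0502), 1.49 without HT + Stroke library 6 (adjusted p = 0.075) and 1.54 without HT + Sham library 6 (adjusted p = 0.101).

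Tgfbr2 in HT + Stroke libraries 1 to 6 was at 12.9, 22.8, 36.7, 25.5, 20.6 and 14.7 CPM, against 12.4, 13.2 and 20.8 CPM in the lowest, median and highest HT + Sham library. Libraries 2, 3 and 4 were above all HT + Sham libraries. The log2 fold change was 0.58 ± 0.24 (adjusted p = 0.235), and it was 0.69 without HT + Stroke library 1 (adjusted p = 0.0811), 0.67 without HT + Stroke library 6 (adjusted p = 0.144) and 0.71 without HT + Sham library 6 (adjusted p = 0.143). Tgfbr1 had 16.5, 20.6 and 31.3 CPM in the lowest, median and highest HT + Stroke library and 13.1, 17.8 and 20.1 CPM in HT + Sham (log2 fold change 0.33 ± 0.15, adjusted p = 0.29).

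For the other 5 genes the log2 fold changes ranged from −0.09 for Smad7 to 0.26 for Tgfb3, with adjusted p-values from 0.348 to 0.896. Tgfb2 had 6.86 to 11.4 CPM in HT + Stroke and 6.65 to 8.46 CPM in HT + Sham, and 4 HT + Stroke libraries were above all HT + Sham libraries. Ltbp1 was at 3.84 CPM in HT + Stroke library 1, its lowest value in any library, and its log2 fold change of −0.06 ± 0.15 became 0.04 without that library. Of the wider list, 87 genes were tested and 2 were higher, Cd109 (log2 fold change 2.06 ± 0.39, adjusted p = 0.0302) and Acvrl1, an endothelial type I receptor (0.53 ± 0.10, adjusted p = 0.0282), a share to be read against the 0.645% of all genes. The count was 0 without HT + Sham library 1, 3 or 4 or HT + Stroke library 2 or 4, 0 in limma, and 1 with the library number as a block. Of all genes, 0.0531% to 0.148% passed in those fits with a library left out, 0.0938% and 0.267% in limma, and 0.275% with the block. The percent of the ligand sum from Tgfb1 was 26.3 ± 5.58% in HT + Sham and 35.1 ± 7.69% in HT + Stroke. The libraries with low macrophage markers were those with low Tgfb1, Tgfbr2 and Tgfbi, but this was not particular to macrophage markers. In HT + Stroke the microglial and astrocyte sums were lowest in library 6 and the fibroblast sum in library 1. Each of these sums was highest in library 3. Of the markers tested in this comparison, 0 of 10 microglial, 0 of 7 macrophage and 0 of 5 fibroblast genes passed. Oligodendrocyte markers did move: 4 of 6 were higher in HT + Stroke (Mbp, Mog, Mag and Cnp, with log2 fold changes of 0.49 to 0.56), and their summed level was 5183 to 5696 CPM against 3698 to 4892 CPM in HT + Sham. Of the striatal markers 0 of 7 passed, with a median log2 fold change of 1.4 and a summed level of 823 to 2591 CPM against 328 to 1040 CPM. The part of these cells in the TGF-beta values was not tested.

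HT + Stroke was also compared with NT + Sham, which sets both treatments against neither and shares its libraries with the comparisons above. Tgfb1 (log2 fold change 1.16 ± 0.24, adjusted p = 0.0122), Tgfbi (1.53 ± 0.39, adjusted p = 0.0239) and Tgfbr2 (0.85 ± 0.21, adjusted p = 0.0196) were higher. These were 3 of 9 genes called and 3 of 9 called higher, against 14.7% and 8.38% of the 16749 genes tested. All 9 genes overlapped between the groups, so 0 of 9 did not, against 6.17% of all genes. For each of the 3 genes, 5 of 6 HT + Stroke libraries were above every NT + Sham library and library 1 was not. Without HT + Stroke library 1, when 17.5% of all genes passed, 5 of the 9 genes passed, with Tgfb2 (log2 fold change 0.42, adjusted p = 0.0333) and Tgfbr1 (0.43, adjusted p = 0.0317) added. The log2 fold changes of Tgfb1, Tgfbi and Tgfbr2 were then 1.30, 1.71 and 0.97, and without HT + Stroke library 6 they were 1.25, 1.68 and 0.94. Tgfb2 also passed without HT + Stroke library 2 (0.44, adjusted p = 0.0429) and Tgfbr1 without HT + Stroke library 6 (0.42, adjusted p = 0.0419). Without HT + Stroke library 4, when 8.26% of all genes passed, only Tgfb1 of the 9 genes passed (1.0, adjusted p = 0.0262). Tgfbi did not pass without NT + Sham library 3, 4 or 5 either (adjusted p = 0.0523, 0.0528 and 0.0539). Without a filter on low counts neither Tgfbr2 (adjusted p = 0.0614) nor Tgfbi (adjusted p = 0.0686) passed, nor did they in limma, and Tgfbi did not pass with the library number as a block (adjusted p = 0.0741). Of the wider list, 23 of 86 genes were higher and 6 were lower, and the lower genes included Smad2 (log2 fold change −0.21 ± 0.07, adjusted p = 0.0464). Markers of other cells moved as well. Higher were 4 of 5 fibroblast, 3 of 6 macrophage, 4 of 10 microglial, 3 of 6 astrocyte and 5 of 6 oligodendrocyte genes tested, and 5 of 8 genes of excitatory cortical neurons were lower. Their part in the TGF-beta values was not tested.

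Angiotensin II without stroke was examined by comparing HT + Sham with NT + Sham. The 9 genes had log2 fold changes from −0.05 ± 0.09 for Smad3 to 0.26 ± 0.13 for Tgfbr2, and adjusted p-values from 0.663 to 0.996. None passed (0 of 9, edgeR), none had an unadjusted p under 0.05 and DESeq2 called 0, while of all 16581 genes 0% passed and 8.03% had an unadjusted p under 0.05. HT + Sham library 6 had the highest Tgfb1, Tgfbr1, Tgfbr2, Tgfbi and Smad7 of its group. Without it the log2 fold change of Tgfb1 was 0.11 (0.23 with it), that of Tgfbr2 was 0.14 and that of Tgfbi was −0.00853. Olfactory bulb markers, whose summed level was 119.9 to 523.8 CPM in HT + Sham and 72.2 to 162.1 CPM in NT + Sham, had a median log2 fold change of 1.2 with 0 of 6 passing, and their part in these values was not tested.

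Angiotensin II after stroke was examined by comparing HT + Stroke with NT + Stroke. Again none of the 9 genes passed (0 of 9, edgeR), 0 had an unadjusted p under 0.05 and DESeq2 called 0, against 0% and 7.23% of the 17008 genes tested. Tgfb1 averaged 24.5 ± 5.49 CPM in NT + Stroke against 24.3 ± 9.49 CPM in HT + Stroke (log2 fold change −0.00178 ± 0.25, adjusted p = 0.999). Tgfbi had 14.1 ± 4.55 CPM and 10.9 ± 7.36 CPM (−0.35 ± 0.42, adjusted p = 0.808), and Tgfbr2 had 26.1 ± 4.45 CPM and 22.2 ± 8.55 CPM (−0.23 ± 0.22, adjusted p = 0.752). Without HT + Stroke library 1 the log2 differences were 0.13 for Tgfb1, −0.18 for Tgfbi and −0.11 for Tgfbr2, and without HT + Stroke library 6 they were 0.09, −0.19 and −0.13. The coefficient of variation between libraries was 39.0% for Tgfb1, 67.3% for Tgfbi and 38.5% for Tgfbr2 in HT + Stroke, and 22.4%, 32.3% and 17.0% in NT + Stroke. Olfactory bulb markers had a median log2 fold change of −0.899 with 0 of 6 passing, and striatal markers one of 0.359 with 0 of 7 passing. Their part in these values was not tested.

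The difference of the stroke effect between hypertensive and normotensive mice was tested as an interaction over all 24 libraries. It ranged from −0.53 ± 0.49 for Tgfbi to 0.19 ± 0.11 for Smad3 on the log2 scale. None of the 9 genes passed (0 of 9, edgeR), 0 had an unadjusted p under 0.05 and DESeq2 called 0, against 0% and 10.4% of the 17608 genes tested. Tgfbr2 had the smallest p-value of the 9 genes (−0.49 ± 0.27, adjusted p = 0.539 in edgeR's test). Without HT + Stroke library 1, HT + Stroke library 6 or HT + Sham library 6 the interaction of Tgfbr2 was −0.37, −0.39 and −0.36, that of Tgfbi was −0.36, −0.38 and −0.34, and that of Tgfb1, −0.23 with all libraries, was −0.09, −0.14 and −0.11. The stroke effect was therefore not shown to differ between NT and HT mice for any of the 9 genes, and it was not shown to be equal. Of the marker lists, olfactory bulb had the largest median interaction (−1.99, 0 of 6 passing). The median was −1.04 for fibroblast markers (0 of 5 passing) and 0.734 for striatal markers (0 of 7 passing). The part of tissue composition in the interaction values was not tested.

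**Figure D5:**
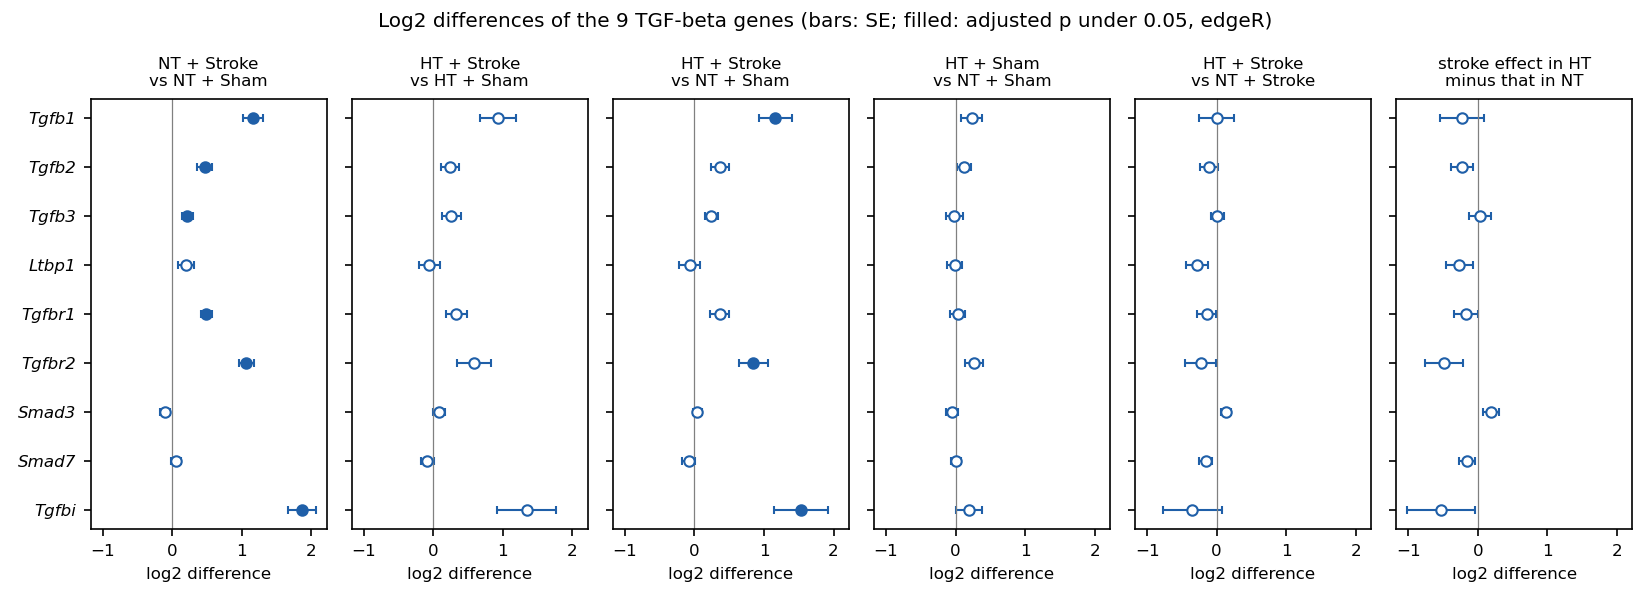
Log2 difference (x axes) of each of the 9 genes (y axis) in the 5 comparisons of groups and the interaction; bars are SE and filled points have an adjusted p under 0.05 in edgeR's test. There are 6 filled points for NT + Stroke vs NT + Sham, 3 for HT + Stroke vs NT + Sham and 0 elsewhere.

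The genes whose levels followed each member most closely were found from deviations of log2 CPM from the group means over the 24 libraries, among 14071 genes. These are descriptions across libraries that share depth and tissue composition. The closest to Tgfb1 were C1qa, Cyba and Laptm5 (Pearson's r 0.926, 0.923 and 0.922), which are genes of microglia and macrophages. The closest to Tgfbi were H2-D1, Scpep1 and Lcp1 (0.961, 0.958 and 0.955), and the closest to Tgfbr2 were Rab32, Mxra8 and Anxa5 (0.94, 0.932 and 0.927). Tgfbr1 was closest to Lamp2, Cd33 and Pla2g7 (0.909, 0.89 and 0.882).

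The remaining members followed other genes. Smad7 was closest to Ugdh, Tmem123 and Fndc1 (0.869, 0.846 and 0.845) and Tgfb3 to Fbrs, Nop2 and Mxd4 (0.875, 0.847 and 0.846). Ltbp1 was closest to Sfrp1, Omp and Stoml3 (0.839, 0.835 and 0.835), of which Omp marks olfactory sensory neurons. Tgfb2 was closest to Acadm, Pdcl and Adamts19 (0.782, 0.747 and 0.718) and Smad3 to Bsn, Plekha6 and Ripor2 (each 0.78), of which Bsn encodes a presynaptic scaffold.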

How the data were processed

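RNA was sequenced from 24 libraries in 4 groups (6 each). The authors deposited 4 tables, one per comparison, with whole-number counts per gene that were not normalized, and FPKM values, which the authors made from the counts, gene length and library size. The submitters' processing notes name featureCounts 1.5.0-p3 and DESeq2 1.20.0, the study's text names DESeq and the Ensembl mouse genome, and the aligner, build and use of strand are not given in the sources used here. The gene positions in the tables equal those of GENCODE mouse release 21 (GRCm38) for all 9 genes. A library gave identical values in every table that held it (48 comparisons, 0 with a difference). The 68 columns of normalized counts, group means and the authors' own fold changes and p-values were not used.

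Counts were joined by gene identifier and tested in R 4.3.3 with edgeR 4.0.16 (filterByExpr with a minimum count of 10 and a minimum total of 15, TMM scaling, robust quasi-likelihood test, two-sided) on the libraries of the groups compared, or on all 24 for the interaction. Multiple testing was handled with the Benjamini-Hochberg adjustment across every gene tested, and a gene passed below 0.05. CPM used TMM-scaled library sizes over the 24 libraries, with 2 added as a prior count for log2 CPM. The scripts were tested on simulated data. The depth of 15922919 to 24865998 counts gave at least 49 counts for each of the 9 genes in every library.

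The members, the wider list, the marker lists and the tests were chosen with earlier results of these data known. Genes named from the wider list are, per role and direction, the one with the smallest p among those that passed in NT + Stroke vs NT + Sham, and Smad2, Smad4, Tgfbr3, Nrros, Itgb8 and Ccn2 whatever their values; 1 further gene of the rule is not reported here. Bgn and Smad5 complete a count, Col1a1 and Col1a2 are named as shared with the fibroblast list, the oligodendrocyte genes complete a count, and Acvrl1 and the Smad2 value in HT + Stroke vs NT + Sham were named after their values were seen. Of the 94 genes listed, Gdf1 was not matched. Alternatives were DESeq2 1.42.0, other scalings and filters, limma 3.58.1 on log2(FPKM + 1) and log2(FPKM + 0.1) with a mean FPKM of at least 0.1, all 4 groups in one fit, the library number as a block, an unadjusted p, and each library left out in turn.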

Additional observations from a re-analysis of the deposited data

Results flagged for a closer look

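In NT + Sham library 3, Tgfb1 made up 29.2% of the summed FPKM of the 3 ligand genes, against 20.4 to 23.6% in the other 5 libraries of its group, a gap of 0.637 of the whole range of the group. It was the only 1 of 48 groups of 6 values examined in this way that stood out, and chance alone flags about 1 in 20. Without this library, the log2 fold change of Tgfb1 in NT + Stroke vs NT + Sham was 1.27.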

How the results depend on the processing

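In NT + Stroke vs NT + Sham, 5 or 6 of the 9 genes and 44 to 49 genes of the wider list passed when each library was left out in turn, against 20.8% to 24.8% of all genes. Tgfb3 did not pass without a filter (adjusted p = 0.118) or with all 4 groups in one fit (0.185). Klf10 did not pass without a filter (0.0786) or in limma on log2(FPKM + 1) (0.0633) or log2(FPKM + 0.1) (0.0615), nor Bmpr2 without scaling beyond library size (0.0844).

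In HT + Stroke vs HT + Sham, 2 of the 9 genes passed in DESeq2, 2 with all 4 groups in one fit and 4 at an unadjusted p, and 0 to 1 when a library was left out (1 without HT + Stroke 1). Of all genes, 2.8% passed in DESeq2 (of 32442, without the filter on low counts), 6.39% with all 4 groups in one fit, 17.0% at an unadjusted p and 3.15% without HT + Stroke 1. Of the wider list, 7 passed in DESeq2, 9 with all 4 groups in one fit, 23 at an unadjusted p, 1 with at least 10 counts in every library, 0 and 0 in limma with either offset, and 0 to 3 when a library was left out (0 without HT + Sham 1, 3 or 4 or HT + Stroke 2 or 4). Of all genes, 0.611% passed with at least 10 counts in every library and 0.0531% to 3.15% when a library was left out. In HT + Stroke vs NT + Sham, 1 of the 9 genes passed without a filter, 1 and 1 in limma with either offset, 6 at an unadjusted p and 1 to 5 when a library was left out (1 without HT + Stroke 4, 5 without HT + Stroke 1). Of all genes, 6.28% passed without a filter (of 32825, including genes with low counts), 5.63% and 6.7% in limma with the larger and smaller offset, and 29.6% at an unadjusted p. Of the wider list, 9 and 14 passed in limma with the larger and smaller offset, 45 at an unadjusted p and 17 to 39 when a library was left out, with 39 without HT + Stroke 1, and 18, 19, 17 and 18 without NT + Sham 1, 3, 4 and 5, and 17 without HT + Stroke 2 or 4. Of all genes, 17.5% passed without HT + Stroke 1, and 8.85%, 11.5%, 8.6% and 9.07% without NT + Sham 1, 3, 4 and 5. Without HT + Stroke 2 and 4 the shares were 8.02% and 8.26%. At an unadjusted p, 18 of 85 genes of the wider list passed in HT + Sham vs NT + Sham (8.03% of all genes), 8 of 89 in HT + Stroke vs NT + Stroke (7.23%) and 21 of 89 in the interaction (10.4%), with 0 adjusted. The cause of these differences was not tested.

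With the library number as a replicate block, 1 gene of the wider list passed in HT + Stroke vs HT + Sham and 9 in HT + Stroke vs NT + Sham. Of all genes, 0.275% and 4.6% passed in these 2 comparisons with the block, against 0.645% and 14.7% without it. For the 9 genes and the wider list, no other count of calls moved by over 1.5 times under the block. Same-numbered libraries of different groups had correlations of deviations from −0.379 to 0.261 (median 0.0534) over 36 pairs, with 14 over 0.1. Pairs with different numbers had −0.429 to 0.358 (median 0.00404) over 180 pairs, with 37 over 0.1. These values do not decide whether libraries of equal number were paired.

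Reversed signs occurred only for differences that passed in no setting. They were near 0 except for Tgfbi in HT + Sham vs NT + Sham, with a log2 fold change of 0.19 with all libraries. For Ltbp1 in HT + Sham vs NT + Sham the log2 fold change was 0.00612 without scaling, 0.00166 with upper-quartile scaling and 0.00319 and 0.00642 in limma with the larger and smaller offset, and −0.0667 to 0.0276 when a library was left out. For HT + Stroke vs NT + Stroke, Tgfb3 was at −0.0380 without scaling and −0.0636 to 0.0526 when a library was left out, and Tgfb1 was at 0.00433 with upper-quartile scaling, 0.00382 with all 4 groups in one fit and −0.156 to 0.131 when a library was left out. For the interaction, Tgfb3 was at −0.0362 without scaling and −0.0454 to 0.123 when a library was left out. Leaving out a library gave −0.108 to 0.0528 for Tgfb3, −0.0288 to 0.0388 for Smad7, −0.0293 to 0.0945 for Tgfbr1 and −0.00853 to 0.283 for Tgfbi in HT + Sham vs NT + Sham, −0.134 to 0.0437 for Ltbp1 in HT + Stroke vs HT + Sham and −0.142 to 0.0423 for Ltbp1 in HT + Stroke vs NT + Sham. Shares of the ligand sum depend on the scale: on CPM, Tgfb1 made up 28.7% in NT + Sham and 42.2% in NT + Stroke, with overlapping ranges. With 6 libraries a group and the spread in HT + Stroke, a missed threshold there does not show that levels were equal.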
